A study of Mus musculus with 24 samples.

Results

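The RNA of embryoid bodies labelled Smad3 knockout, taken at day 4 of differentiation, was compared with the RNA of the undifferentiated wild-type stem cells, across all genes. The comparison used 4 libraries, 2 per group, chosen by their labels out of 10 RNA libraries and 24 samples in the series, and 19470 genes had enough counts to be tested. Mouse embryonic stem cells of the line E14Tg2a.IV were the wild type, sampled in the pluripotent state (day 0) and as embryoid bodies, the free-floating aggregates that form in medium without LIF (day 4). The knockout-labelled group was sampled at day 4 under the same line name, and no knockout library of day 0 was used, so that the 4 days of differentiation cannot be told apart from the genotype or from the clone. Both knockout-labelled libraries carry 1 line number in their names, and the labels do not say whether a group's 2 libraries are from different cultures. P-values therefore measure the spread between these libraries, which may be technical. The other 3 RNA groups, WT day 4, the Smad2 knockout and the Smad2/3 double knockout, each with 2 libraries, entered the fit to estimate that spread, and WT day 4 served to test where the knockout-labelled program differed.

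Embryonic stem cells hold a naive pluripotent state through LIF signaling and a network of transcription factors, and on LIF withdrawal they pass through a state like that of the epiblast before forming the germ layers. Nodal and Activin signal through the kinase receptors ALK4 and ALK7 to SMAD2 and SMAD3, which join SMAD4 and bind DNA with partners such as FOXH1 to switch on genes of the primitive streak, the organizer and the endoderm. SMAD3 binds DNA directly, whereas the main splice form of SMAD2 does not.

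Library totals ran from 35733249 to 53672980 expected counts over the 10 libraries, and were 39550785 and 35733249 in the knockout-labelled pair and 41744575 and 42573015 at day 0. Log expression of the 2 libraries within a group correlated at 0.981 to 0.994, and all pairs differed by more than sampling noise (chi-square per degree of freedom 23.6 to 203.3). The Smad3 gene (mm10, chromosome 9, 63646767 to 63757994, minus strand, protein-coding) was measured at 8.57 and 10.2 CPM (counts scaled to the library size) at day 0 and at 49.7 and 48.7 CPM in the knockout-labelled libraries, beside 42.0 and 44.9 CPM in WT day 4. It rose (log2 fold change 2.39, SE 0.17, adjusted p = 2.92e-05), and it was not called different from WT day 4 (log2 difference 0.18, SE 0.16, adjusted p = 0.607). The RNA level of Smad3 thus does not check the genotype label, since the sources used here do not describe the changed part of the gene.

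At an adjusted p under 0.05 (edgeR's quasi-likelihood test with Benjamini-Hochberg adjustment over the 19470 genes), 10584 genes or 54.4% were called between the knockout-labelled embryoid bodies and the stem cells. Of these, 5775 genes (29.7%) were higher and 4809 (24.7%) were lower, and the median log2 fold change of all tested genes was 0.09. Changes of more than 16-fold were called for 647 genes upward (3.32%) and 191 genes downward (0.981%). In 10578 of the 10584 called genes the 2 knockout-labelled libraries lay on the same side of both stem cell libraries. A call with 2 libraries per group nearly requires this, so the count is no separate support for the calls. Leaving out 1 library left 6985 to 8216 calls, the fewest without the first day 0 library, and 2977 lower calls without the first knockout-labelled library. In 233 genes called higher no count was seen at day 0, and in 38 called lower no count was seen in the knockout-labelled libraries. The lists described here are read against those shares, because 54.4% of all genes were called. The split between higher and lower calls depended on the scaling: 54.6% of calls were upward with the scaling used here (TMM), 72.3% with library totals (median of all genes 0.51), 84.7% on log2(TPM + 1) (median 0.7) and 49.1% with an offset for transcript length and GC content (median 0.0).

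**Figure D1:**
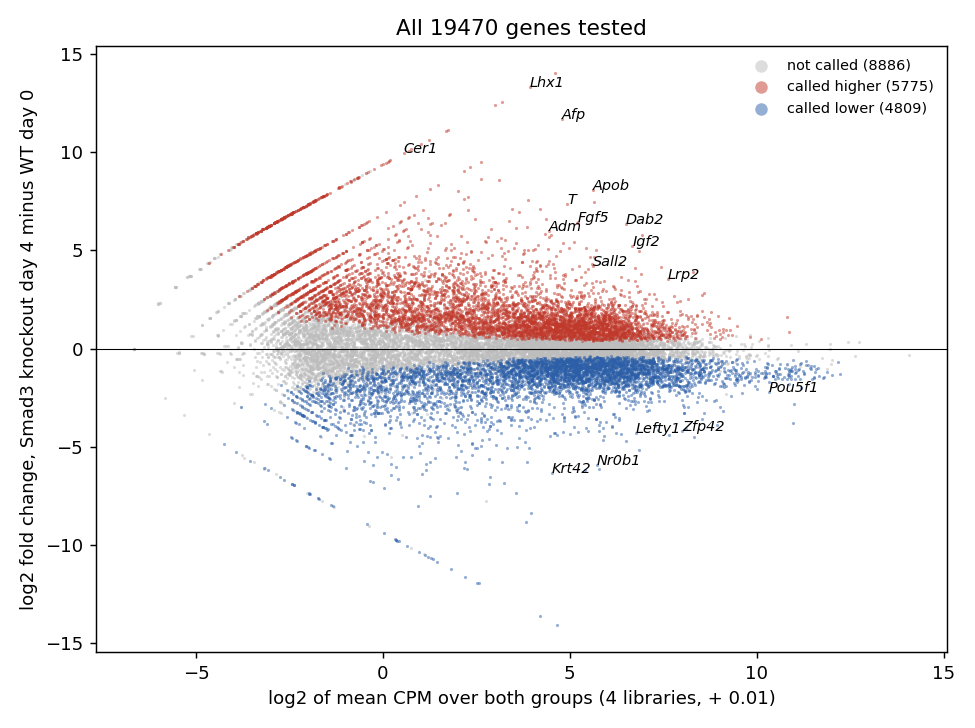
Log2 fold change of the knockout-labelled day 4 embryoid bodies over WT day 0 (vertical axis) against log2 of the mean CPM of the 4 libraries (horizontal axis), 1 point per tested gene. Red points are the 5775 genes called higher, blue points the 4809 called lower; the slanted rows at the left edges hold genes with few or no counts in 1 group, whose plotted fold change depends on the small count added by the fit.

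The naive pluripotency network fell as a group in the knockout-labelled embryoid bodies: all 21 tested members of its list fell, with a median log2 fold change of -3.23 beside 0.09 for all genes. Nr0b1, an orphan nuclear receptor of the naive state, went from 107 and 102 to 1.75 and 1.65 CPM (log2 fold change -5.94, SE 0.50, adjusted p = 4.97e-05). Klf4, a Krüppel-like factor downstream of LIF, went from 137 and 176 to 6.55 and 9.01 CPM (log2 fold change -4.33, SE 0.40, adjusted p = 6.97e-05). In both genes the stem cell libraries were far above either embryoid body library. Esrrb, a nuclear receptor of the same network, fell from 477 and 571 to 30.0 and 31.1 CPM, and Zfp42, which encodes the stem cell marker REX1, fell from 480.1 and 492 to 28.0 and 24.6 CPM. Gdf3, a TGF-beta family ligand of pluripotent cells, fell from 83.4 and 78.9 to 10.2 and 10.5 CPM (log2 fold change -2.97, SE 0.19, adjusted p = 2.03e-05). Residual RNA of each of these genes remained measurable at day 4. The summed level of the 21 genes fell from 8591 and 6841 CPM to 731.7 and 730.9 CPM.

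The core pluripotency genes fell less far, with 9 of 13 called lower, none higher and a median of -1.77. Pou5f1, which encodes OCT4, fell from 2172 and 2067 to 408 and 510.2 CPM (log2 fold change -2.21, SE 0.31, adjusted p = 0.000438). Sox2, its partner on DNA, fell from 414 and 469.6 to 91.8 and 100.5 CPM, and Dppa2, a chromatin factor of early embryos, fell from 73.9 and 73.2 to 13.5 and 12.1 CPM. Nanog fell from 448 and 456 to 119 and 107 CPM (log2 fold change -2.0, SE 0.17, adjusted p = 5.33e-05), below its WT day 4 level of 266 and 228 CPM. Lin28a, Sall4 and Zscan10 were among the members without a call. Per transcript length, Pou5f1 still stood at 538 and 645 TPM (scaled by transcript length and library size) in the knockout-labelled libraries, above the 55.1 and 55.9 TPM of Fgf5 and the 58.4 and 65.2 TPM of T.

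In the LIF and STAT3 list 5 of 13 genes were higher and 4 lower, with a median of -0.32 that turned to 0.1 with library totals and to 0.43 on log2(TPM + 1), where 12 were tested. It stayed negative relative to the median of all genes under each scaling, at -0.41, -0.42 and -0.27. The kinase gene Jak2 rose from 7.32 and 7.19 to 36.7 and 30.7 CPM and the phosphatase gene Ptpn11, which encodes SHP2, rose from 40.5 and 49.4 to 142 and 143 CPM. Bcl3, a cofactor of NF-kappaB induced by STAT3, fell from 26.7 and 33.7 to 4.35 and 6.66 CPM (log2 fold change -2.45, SE 0.41, adjusted p = 0.00114). Socs3, the feedback inhibitor of the pathway, was also called lower.

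Genes of the primed epiblast rose, with 13 of 17 called higher, none lower and a median of 1.98. Fgf5, the growth factor that marks this state, rose from 0.926 and 0.79 to 73.1 and 74.1 CPM (log2 fold change 6.42, SE 0.27, adjusted p = 6.86e-06). Its WT day 4 level was 170 and 152 CPM, without a call between the day 4 groups (adjusted p = 0.0504). Sall2, a zinc finger factor, rose from 4.78 and 5.29 to 92.0 and 94.3 CPM (log2 fold change 4.21, SE 0.18, adjusted p = 6.86e-06), and Otx2, the homeobox factor that guides the exit from naive pluripotency, rose from 40.9 and 49.3 to 157 and 158 CPM. The stem cell libraries were below every embryoid body library in these 3 genes. Dnmt3b, a de novo DNA methyltransferase, rose from 205 and 238 to 624 and 616 CPM, while WT day 4 stood at 1293 and 1453 CPM. The DNA methylation genes as a list were divided, with 3 of 11 higher and 3 lower. Their median of -0.36 turned to 0.07 with library totals and to 0.36 on log2(TPM + 1). Relative to the median of all genes under each scaling it stayed negative, at -0.45, -0.45 and -0.34. With the length and GC offset 1 was higher and 6 lower (median -0.85). Dnmt3l, the catalytically inactive partner of the de novo enzymes, fell from 410.1 and 366 to 72.7 and 77.9 CPM. Tet3, a methylcytosine dioxygenase, rose from 5.11 and 6.77 to 19.1 and 20.2 CPM, and Mbd1, a reader of methylated DNA, rose from 14.3 and 15.4 to 26.4 and 26.0 CPM (log2 fold change 0.82, a call lost with the offset for length and GC).

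**Figure D2:**
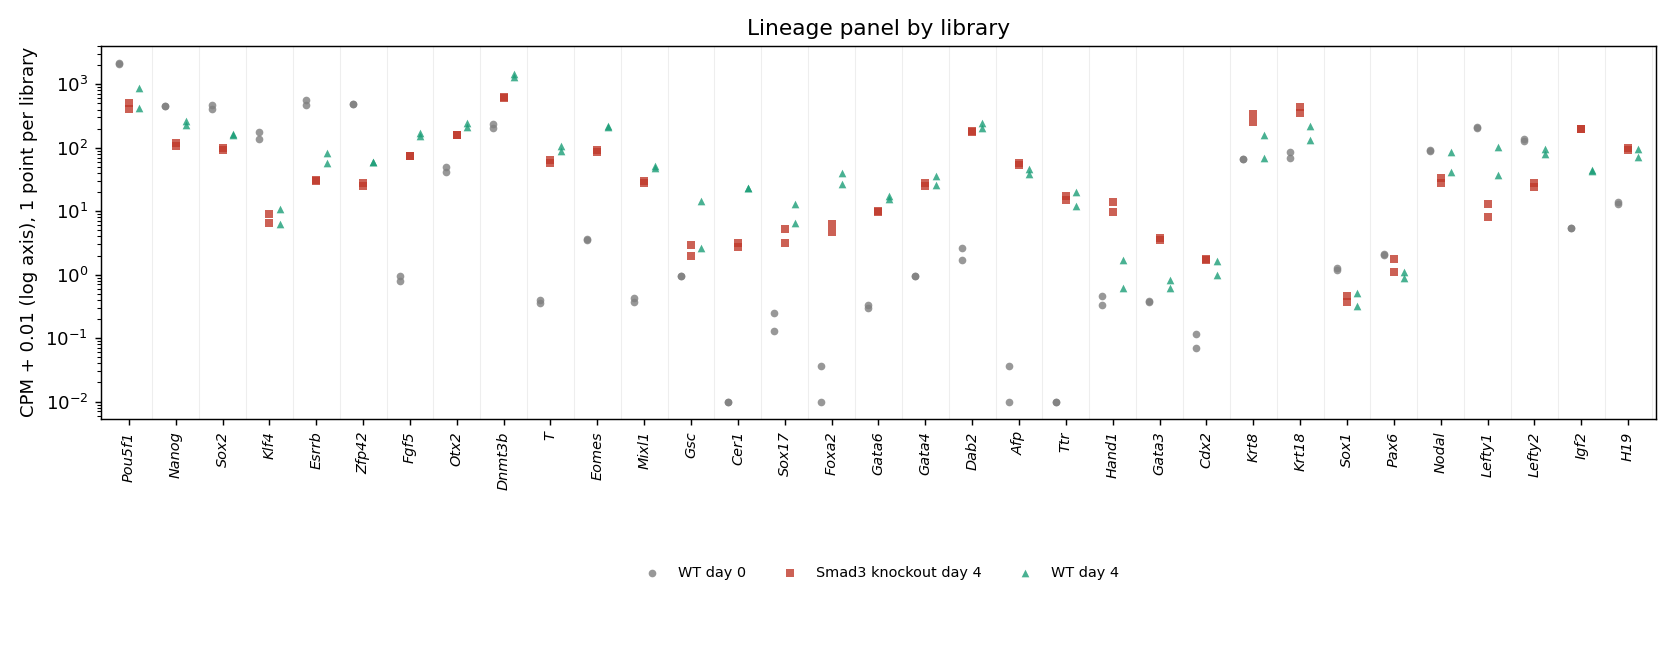
CPM of 33 lineage genes in each library on a log axis, after adding 0.01 so that libraries without a count can be drawn: grey circles WT day 0, red squares knockout-labelled day 4, green triangles WT day 4 (2 points per group). Pluripotency genes at the left fall from day 0, and epiblast, streak, endoderm and keratin genes mostly rise; Sox1 falls, and Gsc and Pax6, whose libraries do not overlap with day 0, were not called.

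Primitive streak genes rose strongly: 11 of 16 tested members went up and 1 went down by the test (median 4.06), and 6 were called higher without either day 0 library. Lhx1, a LIM homeobox factor of the streak and the anterior mesendoderm, had no count in either stem cell library and 27.6 and 33.7 CPM in the knockout-labelled libraries, at least 730.3-fold higher (against 3 counts over the 2 day 0 libraries). T, the T-box factor Brachyury, rose from 0.388 and 0.342 to 56.9 and 64.6 CPM (log2 fold change 7.37, SE 1.66, adjusted p = 0.00508). Eomes, the T-box factor of the streak and the endoderm, rose from 3.5 and 3.69 to 87.1 and 93.7 CPM (log2 fold change 4.65, SE 0.60, adjusted p = 0.000287). Its WT day 4 level was 218 and 215 CPM, without a call between the day 4 groups (adjusted p = 0.249). Both knockout-labelled libraries lay far above both stem cell libraries in each of these genes. Mixl1, a homeobox factor of mesendoderm, rose from 0.359 and 0.421 to 28.1 and 29.5 CPM (adjusted p = 0.0105), a call lost when either day 0 library was left out (adjusted p = 0.0767 and 0.0677). Gsc, the organizer homeobox gene Goosecoid, was at 0.926 and 0.948 CPM and 1.95 and 2.96 CPM and was not called (log2 fold change 1.39, SE 0.73, adjusted p = 0.135). Fgf4, which stem cells secrete, was the member called lower, from 303 and 284 to 19.2 and 18.5 CPM (log2 fold change -3.96, SE 0.29, adjusted p = 3.03e-05).

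In the list of organizer and axial mesendoderm genes, 8 of 11 tested genes were higher and 1 lower, with a median of 6.31, or 5.75 with genes without a day 0 count set to their lower bound. Cer1, a secreted antagonist of Nodal, BMP and WNT, had no count at day 0 and 3.13 and 2.74 CPM in the knockout-labelled libraries, at least 69.9-fold higher. Its WT day 4 level was 23.6 and 23.4 CPM. Cyp26a1, which breaks down retinoic acid, rose from 0.239 and 0.29 to 33.2 and 40.6 CPM (log2 fold change 7.10, SE 0.63, adjusted p = 5.87e-05). Foxa2, the forkhead factor of axial mesendoderm and endoderm, had 1 count over both stem cell libraries and 4.71 and 6.27 CPM in the knockout-labelled ones. The ratio was 389 with a 95% counting interval of 69.5 to 15403. In WT day 4 Foxa2 stood higher, at 27.1 and 40.4 CPM, a difference that was not called (log2 difference -2.62, SE 0.64, adjusted p = 0.102). Hhex, a homeobox factor of anterior endoderm, was the member called lower, from 8.49 and 8.69 to 3.8 and 4.49 CPM (log2 fold change -1.05, SE 0.30, adjusted p = 0.0153). Hhex lost that call with library totals, with the length and GC offset, on TPM, and when any 1 of the 4 libraries was left out.

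The promoters of Lhx1, Cer1 and Afp are shown because these genes went from 1 count or none over both day 0 libraries to clear expression, and because their promoters differ in base composition. The sequences run from 250 bases before to 50 bases after the annotated start and come from RefSeq on GRCm38.p6. Lhx1 lies at chr11:84525485-84525784 on the minus strand, Cer1 at chr4:82885102-82885401 on the minus strand and Afp at chr5:90490464-90490763 on the plus strand. Capitals mark CpG dinucleotides in the Lhx1 and Afp promoters, and in the Cer1 promoter the motif CAGAC, the SMAD-binding CAGA box (searched on both strands, as CAGAC and GTCTG).
Lhx1: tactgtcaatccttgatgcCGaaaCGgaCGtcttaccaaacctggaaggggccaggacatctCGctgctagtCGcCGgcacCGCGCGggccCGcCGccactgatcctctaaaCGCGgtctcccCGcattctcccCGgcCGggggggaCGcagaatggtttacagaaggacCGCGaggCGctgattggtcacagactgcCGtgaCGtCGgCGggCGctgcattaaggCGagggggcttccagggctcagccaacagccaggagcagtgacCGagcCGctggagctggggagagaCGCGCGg
Cer1: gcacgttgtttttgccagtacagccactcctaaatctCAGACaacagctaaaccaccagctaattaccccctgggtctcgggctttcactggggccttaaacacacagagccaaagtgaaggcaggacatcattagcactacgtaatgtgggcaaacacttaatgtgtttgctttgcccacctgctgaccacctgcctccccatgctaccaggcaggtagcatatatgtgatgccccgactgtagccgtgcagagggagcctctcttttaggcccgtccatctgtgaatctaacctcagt
Afp: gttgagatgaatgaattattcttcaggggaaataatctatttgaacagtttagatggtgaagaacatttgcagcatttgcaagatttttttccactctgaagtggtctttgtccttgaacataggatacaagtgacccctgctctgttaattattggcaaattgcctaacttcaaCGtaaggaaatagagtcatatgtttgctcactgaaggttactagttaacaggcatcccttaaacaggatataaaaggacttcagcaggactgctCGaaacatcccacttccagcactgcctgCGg

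The Lhx1 promoter holds 31 CpG dinucleotides and 1 CAGAC, the Cer1 promoter 6 CpG and 1 CAGAC, and the Afp promoter 3 CpG and no CAGAC on either strand. Among the 27025 promoters of the same length the median is 7.0 CpG, and 49.7% hold CAGAC on either strand, so that a match describes the letters of the window and not a bound site. Of the tested genes only 66.4% matched a promoter by name, too few to compare promoters between called groups.

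Genes of the definitive endoderm list rose in 9 of 16 tested members and fell in 4, with a median of 1.95. The summed level of the list went the other way, from 616.6 and 667.3 CPM at day 0 to 468.8 and 510.1 CPM. In WT day 4 the sum was 789.3 and 1056 CPM. With library totals 1 was called lower, and on log2(TPM + 1) none of 14 tested was, with 9 higher under both. Gata4 and Gata6, zinc finger factors of the endoderm, rose from 0.926 and 0.948 to 24.8 and 27.5 CPM (log2 fold change 4.80, SE 0.36, adjusted p = 3.18e-05) and from 0.329 and 0.29 to 9.59 and 10.1 CPM (log2 fold change 4.98, SE 0.34, adjusted p = 2.66e-05). Sox17, the HMG-box factor of definitive and extraembryonic endoderm, rose from 0.12 and 0.237 to 3.13 and 5.16 CPM (log2 fold change 4.50, SE 0.61, adjusted p = 0.000377). The groups did not overlap in any of the 3 genes. Prdm1, which encodes the repressor BLIMP1, fell from 24.8 and 27.3 to 9.93 and 9.11 CPM (log2 fold change -1.45, SE 0.26, adjusted p = 0.00163), and the call was lost on TPM.

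Genes of the visceral endoderm and yolk sac had 24 of 29 tested members up (82.8%), none down and a median of 3.64. This was the largest number called higher among the lineage lists, but also the list with the most tested members. The primed epiblast list had 76.5% higher, and the streak and organizer lists had higher medians (4.06 and 6.31). Afp, the fetal serum protein alpha-fetoprotein, had 1 count over both stem cell libraries and 58.0 and 53.4 CPM in the knockout-labelled libraries, a ratio of 3986 with a 95% counting interval of 715 to 157468. Ttr, the thyroid hormone carrier transthyretin, had no count at day 0 and 14.7 and 17.3 CPM, at least 382-fold higher, and Apoa4, an apolipoprotein, had none and then 15.4 and 20.8 CPM, at least 431-fold higher. Apob, the structural protein of secreted lipoproteins, rose from 0.269 and 0.448 to 103 and 94.1 CPM (log2 fold change 8.08, SE 0.44, adjusted p = 1.16e-05), the largest rise among genes with at least 10 day 0 counts and at least 5 CPM at day 4. The endocytic machinery of this tissue rose with them. Cubn, the cubilin receptor, rose from 0.478 and 0.658 to 100.2 and 99.2 CPM (log2 fold change 7.44, SE 0.51, adjusted p = 2.74e-05), its partner Lrp2, megalin, rose from 30.3 and 32.7 to 368 and 357 CPM (log2 fold change 3.52, SE 0.18, adjusted p = 8.91e-06), and the adaptor Dab2 rose from 1.7 and 2.63 to 182 and 174 CPM (log2 fold change 6.35, SE 0.32, adjusted p = 8.74e-06). None of these 7 genes was called different from WT day 4: Afp stood at 46.5 and 38.4, Apob at 199 and 133 and Cubn at 334 and 266 CPM. In bulk RNA, more cells of a type and more RNA per cell cannot be told apart.

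Mesoderm genes rose in 8 of 14 tested members and fell in 2 (median 1.74, or 1.71 with genes without a day 0 count at their bound). Without either day 0 library 4 were called higher, and without the second knockout-labelled library 5. Pdgfra, the platelet-derived growth factor receptor of early mesoderm and primitive endoderm, rose from 0.179 and 0.474 to 23.4 and 23.3 CPM (log2 fold change 6.12, SE 0.47, adjusted p = 3.64e-05). Foxc2, a forkhead factor of paraxial mesoderm, rose from 0.0598 and 0.105 to 1.64 and 2.42 CPM, while WT day 4 was at 0.0229 and 0.19 CPM. Tcf15, the bHLH factor Paraxis, fell from 30.1 and 27.5 to 2.13 and 2.71 CPM (log2 fold change -3.57, SE 0.44, adjusted p = 0.00024). Cardiac genes were divided, with 4 of 13 higher and 4 lower, and a median of 0.33. On log2(TPM + 1) only 7 of them were tested, and the median of these was -0.08, so the medians are over different members. Wt1, a zinc finger factor of the kidney and epicardium, rose from 0.388 and 0.474 to 7.75 and 6.96 CPM, and the T-box gene Tbx20 rose from 0.149 and 0.316 to 3.69 and 3.21 CPM. Smarcd3, a subunit of a chromatin remodeling complex, fell from 21.7 and 16.3 to 1.55 and 1.85 CPM. Among hematoendothelial genes 5 of 15 were higher (3 without the first day 0 library) and 2 lower, with a median of 0.44. The VEGF receptor genes Flt1 and Kdr rose from 1.11 and 1.53 to 56.0 and 53.6 CPM (log2 fold change 5.37, SE 0.28, adjusted p = 9.75e-06) and from 0.239 and 0.29 to 13.7 and 13.9 CPM (log2 fold change 5.69, SE 0.48, adjusted p = 5.03e-05). Pecam1, an adhesion molecule of endothelium and of naive stem cells, fell from 64.3 and 75.0 to 9.84 and 11.1 CPM. The later blood genes Gata1, Gfi1b and Tal1 were not called.

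In the trophoblast list 9 of 20 genes were higher (5 without the first day 0 library) and 1 lower, with a median of 0.71. Hand1, a bHLH factor of trophoblast giant cells and of extraembryonic mesoderm, rose from 0.329 and 0.448 to 9.73 and 14.0 CPM (log2 fold change 4.91, SE 0.47, adjusted p = 7.98e-05). Gata3 rose from 0.359 and 0.369 to 3.49 and 3.75 CPM (log2 fold change 3.30, SE 0.43, adjusted p = 0.000295), and Cdx2, the caudal factor of trophectoderm and of the posterior streak, rose from 0.0598 and 0.105 to 1.67 and 1.75 CPM (log2 fold change 4.30, SE 1.00, adjusted p = 0.00598). The Cdx2 call was lost on log2(TPM + 1) and without the first day 0 library, and it rests on 6 counts at day 0. Elf5 and Tpbpa, markers of the trophoblast lineage itself, were not called, and Tfap2c fell from 49.8 and 53.8 to 24.4 and 26.4 CPM, a call lost on TPM.

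Surface ectoderm and keratin genes were higher in 8 of 17 members and lower in 1 (median 1.57, or 1.35 with genes without a day 0 count at their bound). The simple-epithelial keratin genes Krt8 and Krt18 rose from 67.6 and 65.2 to 251 and 341 CPM (log2 fold change 2.16, SE 0.38, adjusted p = 0.00153) and from 84.7 and 69.9 to 354 and 432 CPM (log2 fold change 2.35, SE 0.29, adjusted p = 0.000235). WT day 4 stood at 67.7 and 159 and at 132 and 218 CPM for the 2 keratins, with no call between the day 4 groups. Dsp, the desmosomal plaque protein desmoplakin, rose from 21.5 and 23.9 to 167 and 171 CPM (log2 fold change 2.90, SE 0.20, adjusted p = 2.74e-05), and the homeobox gene Dlx3 rose from 0.269 and 0.342 to 6.04 and 7.5 CPM (log2 fold change 4.45, SE 0.33, adjusted p = 3.2e-05). The tight junction gene Cldn4 fell from 261 and 241 to 133 and 152 CPM (log2 fold change -0.82, SE 0.28, adjusted p = 0.0309), but was 0.10 on the log2(TPM + 1) scale (median of all genes 0.7), and its call was lost when any 1 of the 4 libraries was left out.

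Neural genes did not move one way: 10 of 20 tested members were higher and 6 lower, with a median of 1.05. The fit on log2(TPM + 1) had 4 of 7 tested higher and 1 lower. Of the 20 members 3 were called higher without the first day 0 library and 6 without the second or without the first knockout-labelled library. The neural progenitor filament gene Nes rose from 24.1 and 26.2 to 118 and 118 CPM (log2 fold change 2.23, SE 0.18, adjusted p = 4.58e-05). Six3, a forebrain homeobox gene, had no count at day 0 and stayed under 1 CPM at day 4, with 0.333 and 0.345 CPM, which is at least 8.08-fold higher. Sox1, the earliest marker of the neural plate, fell from 1.28 and 1.18 to 0.355 and 0.444 CPM (log2 fold change -1.62, SE 0.45, adjusted p = 0.0131), a call lost with library totals and without the first day 0 library or either knockout-labelled library. Pax6 stood at 2.09 and 2.03 CPM and then 1.73 and 1.09 CPM and was not called (log2 fold change -0.54, SE 0.36, adjusted p = 0.229), and its difference was 0.28 on log2(TPM + 1) without a filter. Tubb3, the neuronal tubulin gene, fell from 57.1 and 72.2 to 3.62 and 4.42 CPM (log2 fold change -4.01, SE 0.51, adjusted p = 0.000282).

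Germ cell genes fell in 9 of 12 members and rose in 1, with a median of -1.09. Of 11 members tested on log2(TPM + 1), 3 were lower. Prdm14, a factor shared by germ cells and naive stem cells, fell from 19.7 and 20.3 to 2.04 and 1.58 CPM (log2 fold change -3.46, SE 0.31, adjusted p = 6.25e-05), and the kinase-like gene Stk31 fell from 19.2 and 15.0 to 6.2 and 5.6 CPM. Ddx4, the germline helicase Vasa, rose from 20.2 and 22.1 to 36.8 and 35.2 CPM (log2 fold change 0.77, adjusted p = 0.0135), a call lost with the length and GC offset and when any 1 of the 4 libraries was left out.

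Genes of the two-cell-like state, a rare state of stem cell cultures that resembles the cleavage embryo, rose in 10 of 12 tested members with none lower and a median of 2.42. The summed level of the list moved much less, from 271.2 and 247.5 CPM to 332.6 and 281.9 CPM. In WT day 4 that sum was 330.4 and 214 CPM. Usp17la, of a deubiquitinase family, rose from 0.627 and 1.05 to 8.82 and 8.91 CPM (log2 fold change 3.39, SE 0.37, adjusted p = 0.000143), and Zscan4f, a zinc finger gene of this state, rose from 10.6 and 13.4 to 77.3 and 63.3 CPM (log2 fold change 2.55, SE 0.39, adjusted p = 0.000659). Both families have near-identical copies, and reads can be split among them. WT day 4 stood at 2.84 and 2.35 CPM for Usp17la and at 32.1 and 24.8 CPM for Zscan4f, and neither was called different between the day 4 groups (adjusted p = 0.0582 and 0.136).

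**Figure D3:**
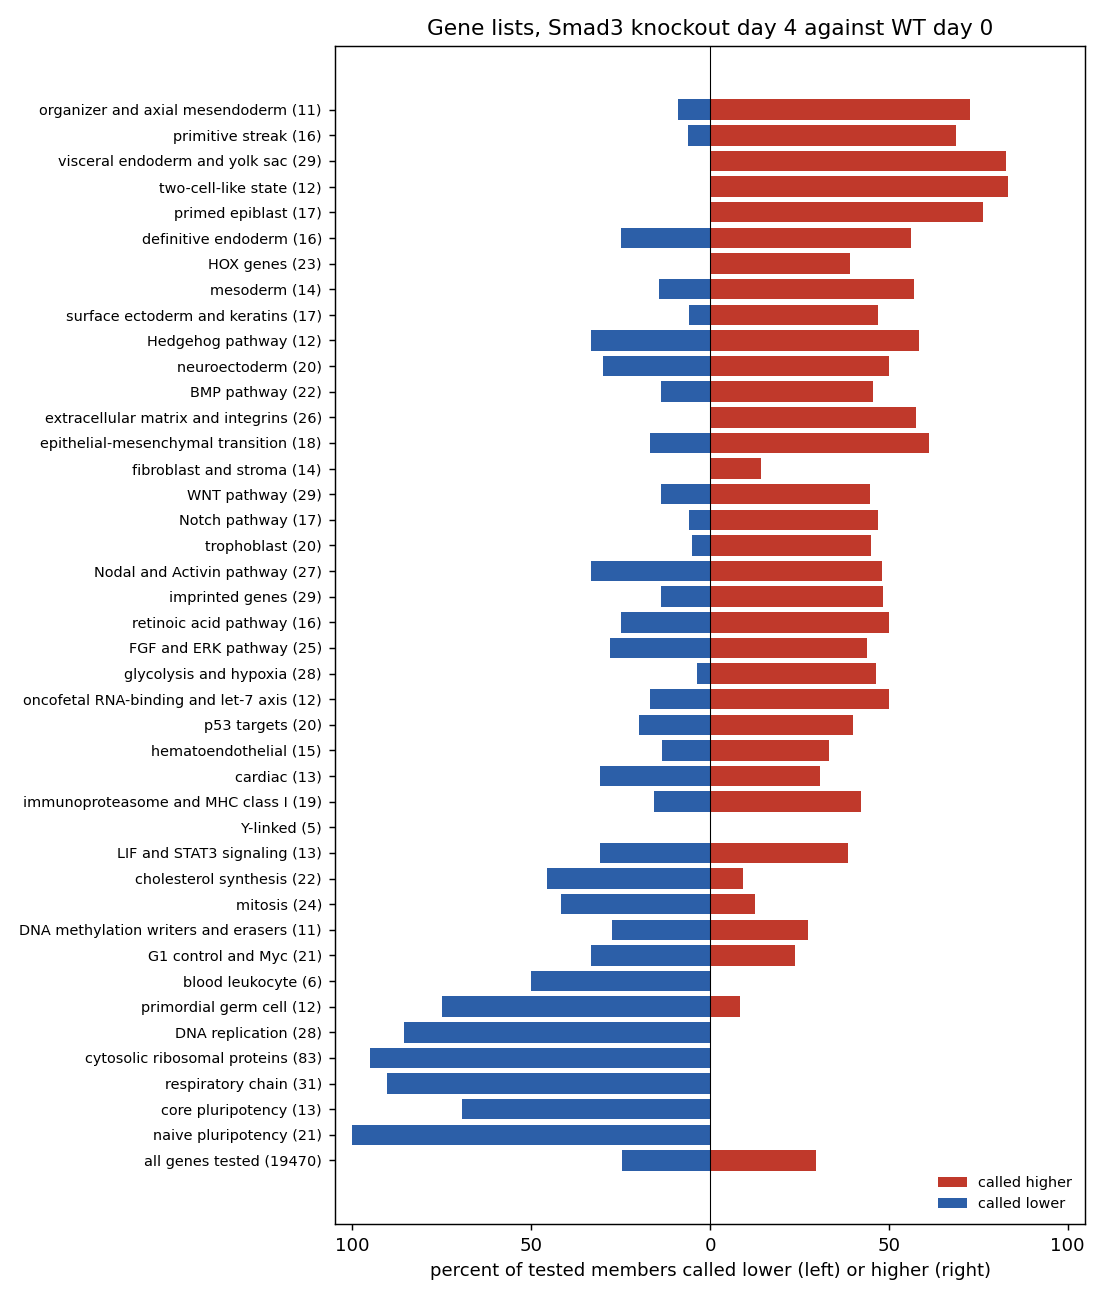
Share of the tested members of each gene list called higher (red, to the right) or lower (blue, to the left) in the knockout-labelled embryoid bodies against WT day 0, ordered by the median log2 fold change, with the number of tested members in brackets. The bottom bar is all 19470 tested genes (29.7% higher, 24.7% lower); the organizer list has the highest median and the naive pluripotency list the lowest, and the bars of many lists change their balance under other scalings.

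The components of the Nodal and Activin pathway moved in both directions: 13 of 27 tested genes were higher and 9 lower, with a median of 0.64, which became 0.01 with the length and GC offset (9 higher, 10 lower). On log2(TPM + 1) 12 of 21 tested members were higher and 2 lower (median 1.18), so that the number of falls rests on the scaling. Among ligands, Nodal fell from 89.2 and 91.4 to 27.9 and 33.7 CPM (log2 fold change -1.55, SE 0.39, adjusted p = 0.00806), a call lost on TPM and without the first knockout-labelled library, and Inhbb, the activin beta B subunit, fell from 9.89 and 10.3 to 0.377 and 0.321 CPM (log2 fold change -4.84, SE 0.42, adjusted p = 5.33e-05). The feedback antagonists fell as well. Lefty1 went from 210.2 and 206 to 7.95 and 13.0 CPM (log2 fold change -4.31, SE 0.56, adjusted p = 0.000295) and Lefty2 from 129 and 137 to 24.3 and 27.6 CPM (log2 fold change -2.36, SE 0.67, adjusted p = 0.0155), the Lefty2 call being lost when any 1 of the 4 libraries was left out. WT day 4 stood at 37.1 and 103 CPM for Lefty1 and at 80.3 and 96.9 CPM for Lefty2, above both knockout-labelled libraries in each gene. Those differences were not called (adjusted p = 0.0569 and 0.221). Of the receptor genes Acvr1b, Acvr2a, Acvr2b, Tgfbr1 and Tgfbr2 were called higher. Skil, the SMAD co-repressor SnoN, rose from 67.6 and 58.7 to 251 and 211 CPM (log2 fold change 1.87, SE 0.21, adjusted p = 0.000171), and Fstl3, a secreted activin-binding inhibitor, rose from 1.43 and 1.92 to 11.9 and 15.9 CPM (log2 fold change 3.05, SE 0.35, adjusted p = 0.000177). Foxh1, the DNA-binding partner of SMAD2 and SMAD3, was not called.

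BMP pathway genes were higher in 10 of 22 members (6 without the first day 0 library) and lower in 3 (median 0.91). On log2(TPM + 1) 9 of 15 tested were higher and none lower. The ligand gene Bmp2 rose from 4 counts over both stem cell libraries to 4.51 and 5.26 CPM (log2 fold change 6.37, SE 0.67, adjusted p = 0.000115), and Bmper, a secreted BMP regulator, rose from 0.0598 and 0.0527 to 2.55 and 2.54 CPM. The homeobox targets Msx1 and Msx2 were called higher, while the ID genes Id1, Id2 and Id3 were not called and Id4 was called lower. Bmp4 fell from 13.9 and 18.5 to 5.71 and 8.12 CPM (log2 fold change -1.23, SE 0.28, adjusted p = 0.00521), but was 0.22 higher on the log2(TPM + 1) scale (median of all genes 0.7) and lost its call without the first knockout-labelled library.

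WNT pathway genes were higher in 13 of 29 tested members (8 without the first day 0 library) and lower in 4 (median 0.77). The fit on log2(TPM + 1) had 17 of 26 tested higher and 2 lower. The ligand genes Wnt3 and Wnt8a and the target genes Axin2 and Sp5 were called higher. The receptor gene Fzd7 rose from 56.8 and 59.3 to 161 and 159 CPM (log2 fold change 1.46, SE 0.16, adjusted p = 0.000159), and Rnf43, which encodes a ubiquitin ligase that removes Frizzled receptors, rose from 1.22 and 1.24 to 9.06 and 10.6 CPM (log2 fold change 2.99, SE 0.42, adjusted p = 0.00045). Ccnd1, the G1 cyclin D1 and a WNT target, fell from 107 and 102 to 34.7 and 33.6 CPM (log2 fold change -1.61, SE 0.17, adjusted p = 0.000131).

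In the FGF and ERK list 11 of 25 genes were higher (7 without the first day 0 library) and 7 lower (median 0.54). Of 24 members tested on log2(TPM + 1), 16 were higher and 4 lower. The ligand genes moved in both directions: Fgf4 and Fgf17 were called lower, Fgf5, Fgf8 and Fgf10 higher. Fgfr2, a receptor gene, rose from 8.93 and 9.95 to 41.3 and 43.4 CPM (log2 fold change 2.16, SE 0.17, adjusted p = 3.67e-05). Notch genes were higher in 8 of 17 and lower in 1 (median 0.73). Maml3, a Mastermind coactivator, rose from 0.359 and 0.369 to 15.1 and 17.6 CPM (log2 fold change 5.48, SE 0.35, adjusted p = 1.87e-05) and the receptor gene Notch2 from 15.4 and 14.7 to 71.9 and 79.0 CPM (log2 fold change 2.33, SE 0.17, adjusted p = 3.12e-05). Notch4 fell from 8.51 and 13.0 to 3.2 and 4.12 CPM, a call lost with library totals, on TPM and without the second day 0 library or either knockout-labelled library.

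Retinoic acid genes were higher in 8 of 16 tested members (5 without the first day 0 library) and lower in 4 (median 0.62). On log2(TPM + 1) 8 of 13 tested were higher and 2 lower. Beside the catabolic enzyme gene Cyp26a1, described with the organizer genes, Rxrg, a retinoid X receptor, rose from 0.538 and 0.527 to 3.33 and 3.75 CPM. Crabp1, a cytosolic carrier of retinoic acid, fell from 33.3 and 25.6 to 5.73 and 5.92 CPM (log2 fold change -2.34, SE 0.28, adjusted p = 0.000194). Hedgehog genes were higher in 7 of 12 tested members and lower in 4 (median 1.46). The fit on log2(TPM + 1) had 6 of 9 tested higher and 2 lower. The co-receptor genes Cdon and Gas1 rose from 11.6 and 11.7 to 56.4 and 54.6 CPM (log2 fold change 2.26, SE 0.16, adjusted p = 2.92e-05) and from 1.37 and 1.24 to 9.02 and 9.99 CPM. Hhip, a target gene that encodes a Hedgehog-binding inhibitor, fell from 2.57 and 2.5 to 0.222 and 0.123 CPM (log2 fold change -3.84, SE 0.46, adjusted p = 0.000205). The target Gli1 was lower and Ptch1 higher.

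In the list for the epithelial-mesenchymal transition 11 of 18 genes were higher and 3 lower (median 0.8). With the length and GC offset 8 were higher and 6 lower (median 0.31), and on log2(TPM + 1) 13 of 17 tested were higher and none lower (median 1.49). Esrp1, an epithelial splicing regulator, rose from 57.6 and 49.8 to 139.7 and 129.7 CPM, and Cdh1, E-cadherin, was called higher. Cdh2, N-cadherin, rose from 2.9 and 3.9 to 41.2 and 40.8 CPM (log2 fold change 3.59, SE 0.48, adjusted p = 0.000365), and Vim, the mesenchymal filament vimentin, fell from 154 and 143 to 52.4 and 66.6 CPM (log2 fold change -1.32, SE 0.33, adjusted p = 0.00816), a call lost on TPM and without the first knockout-labelled library. Matrix and integrin genes were higher in 15 of 26 members with none lower (median 0.84), and with the length and GC offset 10 were higher and 5 lower. Without the first day 0 library 7 were called higher, and without the second knockout-labelled library 9. Col4a1, a basement membrane collagen, rose from 13.5 and 18.5 to 188 and 262 CPM (log2 fold change 3.81, SE 0.41, adjusted p = 0.000131), and Col6a1 rose from 0.866 and 0.737 to 6.73 and 9.16 CPM (log2 fold change 3.31, SE 0.41, adjusted p = 0.000238).

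Of 37 HOX genes 23 were tested, 9 were called higher and none lower (median 1.75). Without 1 library, 2 to 4 were called higher, whichever of the 4 was left out. Hoxd1 rose from 0.239 and 0.316 to 2.66 and 3.31 CPM (log2 fold change 3.41, SE 0.63, adjusted p = 0.00189) and lies on the 3' side of its cluster, the first side to open in the embryo. The summed HOX level was low, 7.559 and 8.031 CPM at day 0 and 16.83 and 18.61 CPM in the knockout-labelled libraries. WT day 4 stood at 7.317 and 7.084 CPM, and no HOX gene was called between the day 4 groups.

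Imprinted genes were higher in 14 of 29 members and lower in 4 (median 0.63). Of 26 members tested on log2(TPM + 1), 17 were higher and 2 lower. Igf2, the paternally expressed fetal growth factor, rose from 5.35 and 5.35 to 198 and 198 CPM (log2 fold change 5.21, SE 0.25, adjusted p = 8.73e-06), and its neighbour H19, a maternally expressed noncoding RNA, rose from 14.0 and 13.1 to 90.6 and 99.7 CPM (log2 fold change 2.81, SE 0.22, adjusted p = 3.92e-05). Zim1, an imprinted zinc finger gene, rose from 0.418 and 0.421 to 5.82 and 5.35 CPM (log2 fold change 3.72, SE 0.29, adjusted p = 3.64e-05). Slc22a18 fell from 9.83 and 7.69 to 1.33 and 1.65 CPM (log2 fold change -2.55, SE 0.30, adjusted p = 0.000192). Among the oncofetal RNA-binding genes and their let-7 partners 6 of 12 were higher and 2 lower (median 0.5). With the length and GC offset the numbers were 5 and 4 (median 0.05) and on log2(TPM + 1) 9 and none (median 1.5). Igf2bp3, which binds the Igf2 messenger RNA, rose from 25.2 and 35.6 to 108 and 104 CPM, and Tut4, which tails precursors of let-7, rose from 16.2 and 30.8 to 126 and 121 CPM (log2 fold change 2.40, SE 0.31, adjusted p = 0.00029). Mycn fell from 145 and 172 to 60.0 and 74.9 CPM, a call lost on TPM.

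In the list of glycolysis and hypoxia genes 13 of 28 were higher and 1 lower (median 0.53), but with library totals 17 were higher and on log2(TPM + 1) 23 (median 1.52). Adm, the vasodilator peptide adrenomedullin, rose from 0.598 and 0.764 to 40.8 and 44.7 CPM (log2 fold change 5.96, SE 0.35, adjusted p = 1.49e-05), and Ndrg1 rose from 32.3 and 38.9 to 171 and 175 CPM (log2 fold change 2.28, SE 0.20, adjusted p = 5.33e-05). Egln3, Car9, Vegfa and Slc2a1 were called higher, while Ldha, Pgk1, Aldoa, Gapdh and Pkm were not called. Eno1, enolase, fell from 3607 and 3076 to 1486 and 1575 CPM, a call lost on TPM, and near-identical copies of Eno1 can share its reads.

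Of 31 genes of the respiratory chain 28 were lower and none higher (median -1.63), with Cox5b from 368 and 297 to 66.9 and 79.7 CPM (log2 fold change -2.18, SE 0.22, adjusted p = 0.000107) and Cox5a from 466 and 341 to 103 and 88.6 CPM (log2 fold change -2.08, SE 0.22, adjusted p = 0.000117) of cytochrome oxidase as examples. With an offset for length and GC the number called lower was 27, and on log2(TPM + 1) it was 19. Of 83 genes of cytosolic ribosomal proteins 79 were lower (51 without the first day 0 library) and none higher, with a median of -1.3. Rpl10l and Rpl39l, copies of ribosomal genes best known from testis, fell from 118 and 91.2 to 7.86 and 7.65 CPM (log2 fold change -3.75, SE 0.31, adjusted p = 4.68e-05) and from 84.3 and 56.5 to 10.3 and 9.3 CPM, but their parent genes are near copies and the split of reads is uncertain. Under the offset for length and GC content the number of the 83 genes called lower was 9, and on log2(TPM + 1) it was 13. Less the median of all genes under each scaling, the list's median was -1.39 in the main fit, -0.27 with the offset and -1.05 on log2(TPM + 1). Ribosomal proteins took 16.8 and 12.5% of all counts at day 0, 8.35 and 8.33% in the knockout-labelled libraries and 5.96 and 7.36% in WT day 4.

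Over all genes the fold change followed transcript length. In 5 equal bins of transcript length, from the shortest to the longest, the median log2 fold change was -0.97, -0.48, 0.0, 0.46 and 1.01, with 3894 genes in each. In the shortest bin 404 genes were higher and 1717 lower, and in the longest 2316 were higher and 226 lower. The median length was 3320 bases for genes called higher, 1435 for genes called lower and 2166 for genes without a call. With an offset for length and GC content 10624 genes were called, of which 7507 kept their call and 217 were called in the opposite direction. Whether the trend is a difference between the cells or between the libraries' RNA was not tested, and the list counts are to be read beside it. The pluripotency, streak and yolk sac lists kept their direction under each of the 5 scalings compared.

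**Figure D4:**
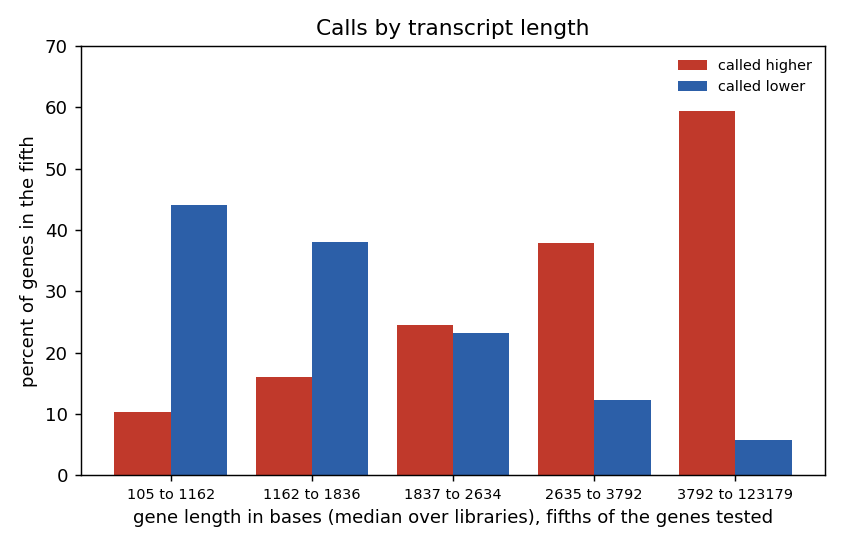
Percent of genes called higher (red) or lower (blue) in the knockout-labelled embryoid bodies against WT day 0 in 5 equal bins of transcript length, in bases (median over the libraries). Calls upward rise and calls downward fall from the shortest bin (404 higher, 1717 lower) to the longest (2316 higher, 226 lower).

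DNA replication genes fell in 24 of 28 members and rose in none (median -1.2). On log2(TPM + 1) 10 were lower and 3 higher, while with the length and GC offset all 28 were lower (median -1.08). Gins1, a subunit of the replicative helicase, fell from 75.5 and 63.1 to 16.8 and 17.4 CPM (log2 fold change -2.02, SE 0.17, adjusted p = 4.93e-05), and Rrm2, of ribonucleotide reductase, fell from 231 and 284 to 84.7 and 85.3 CPM (log2 fold change -1.60, SE 0.17, adjusted p = 0.000119), the Rrm2 call being lost on TPM. Mitosis genes were lower in 10 of 24 members and higher in 3, and 6 were called lower without the first knockout-labelled library. Their median of -0.34 turned to 0.09 with library totals and to 0.34 on log2(TPM + 1). Relative to the median of all genes under each scaling it stayed negative, at -0.43, -0.43 and -0.36. Birc5, survivin, fell from 256 and 207 to 71.3 and 76.7 CPM, and Ccnb2, cyclin B2, fell from 246 and 230.0 to 89.0 and 91.4 CPM. Cenpe, the long kinetochore motor gene, rose from 69.3 and 69.6 to 119 and 109 CPM (log2 fold change 0.71) but was -0.75 with the length and GC offset (adjusted p = 0.000254).

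Among genes of G1 control 5 of 21 were higher and 7 lower, with a median of -0.42 that turned to 0.37 on log2(TPM + 1). Less the median of all genes under each scaling, these values were -0.51 and -0.33. Ccne1, cyclin E1, fell from 232 and 202 to 63.2 and 59.5 CPM (log2 fold change -1.82, SE 0.17, adjusted p = 6.8e-05), and Rb1, the retinoblastoma gene that restrains G1, rose from 14.3 and 14.3 to 51.5 and 40.6 CPM (log2 fold change 1.69, SE 0.24, adjusted p = 0.000451). Cholesterol synthesis genes were lower in 10 of 22 members and higher in 2 (median -0.32), but on log2(TPM + 1) none was lower and 9 were higher (median 0.48), and 6 were lower without the first knockout-labelled library. Less the median of all genes under each scaling, the cholesterol medians of -0.32 and 0.48 were -0.41 and -0.22. Fdps fell from 294 and 228 to 109.7 and 111 CPM, a call lost on TPM. Fdft1 fell from 192 and 166 to 83.6 and 84.7 CPM and was 0.05 on log2(TPM + 1) (median of all genes 0.7). Both genes encode enzymes of the sterol pathway.

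Target genes of p53 were higher in 8 of 20 (5 without the first day 0 library) and lower in 4 (median 0.45). Btg2, an antiproliferative factor, rose from 34.2 and 34.7 to 102 and 94.8 CPM and Pmaip1, which encodes the cell death protein NOXA, rose from 20.7 and 23.1 to 61.0 and 55.6 CPM, whereas Tigar, a regulator of glycolysis, fell from 67.0 and 62.7 to 19.6 and 20.4 CPM. In the list for the immunoproteasome and MHC class I 8 of 19 were higher (4 or 5 without any 1 library) and 3 lower, with a median of 0.16. Irf1 rose from 31.3 and 33.7 to 80.8 and 85.5 CPM and the immunoproteasome subunit gene Psmb8 from 3.97 and 3.74 to 14.2 and 15.3 CPM. Ifitm2, of a family of membrane proteins that restrict viruses and are high in stem cells, fell from 528 and 496 to 65.5 and 65.6 CPM (log2 fold change -2.97, SE 0.19, adjusted p = 1.87e-05), and the 3 genes called lower in this list were Ifitm1, Ifitm2 and Ifitm3.

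Markers of other cells that a culture could hold were examined in the same way. Of 14 fibroblast and stroma genes 2 were higher and none lower (median 0.77, or 0.7 with genes without a day 0 count at their bound). The number called higher was 8 with library totals, 6 with the length and GC offset (2 lower) and 6 of 9 tested on log2(TPM + 1). Pdgfrb rose from 4.3 and 5.85 to 15.6 and 18.8 CPM and Dcn, which had no count at day 0, reached 0.155 and 0.173 CPM, at least 3.91-fold higher. Col1a1, Col1a2 and Thy1 were not called, and Lum had 3 counts over the knockout-labelled libraries. The summed level of the list was 145.4 and 149.1 CPM at day 0 and 238.5 and 271 CPM in the knockout-labelled libraries. Of 10 leukocyte genes 6 were tested, 3 were lower (1 or none without any 1 library) and none higher, and the defining markers Ptprc, Lyz2, Tyrobp and Adgre1 were too low to be tested. Itgam fell from 1.11 and 1.34 to 0.422 and 0.444 CPM and Cd3e from 1.37 and 1.5 to 0.333 and 0.444 CPM, both under 2 CPM in each library, and their calls were lost without either knockout-labelled library.

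The steepest changes outside the lists were mostly noncoding or little studied. The noncoding gene Gdap10 rose from 0.179 and 0.132 to 32.7 and 26.2 CPM (log2 fold change 7.55, SE 0.54, adjusted p = 2.95e-05), and the locus Gm43980, whose class is not settled in the annotation, rose from 0.0896 and 0.211 to 27.0 and 16.1 CPM. Gm28036, a gene model without a count at day 0, reached 53.7 and 43.6 CPM, at least 1159-fold higher. Among falls, Mymx, which encodes a micropeptide of myoblast fusion, went from 87.4 and 80.9 to 0.977 and 1.38 CPM (log2 fold change -6.16, SE 0.38, adjusted p = 1.71e-05), and the type I keratin gene Krt42 from 53.2 and 37.7 to 0.555 and 0.568 CPM (log2 fold change -6.33, SE 0.69, adjusted p = 0.000135). The noncoding genes Gm45733 and Gm26790 fell from 23.9 and 4.42 to 0.155 and 0.074 CPM and from 15.8 and 12.8 to 0.0888 and 0.222 CPM. Gm44170 and Gm17122 are annotated as antisense, fell from 31.3 and 16 to 0 and 0.296 CPM and from 24.7 and 12.7 to 0.311 and 0 CPM, and cannot be told apart from their overlapping partners, since the sources used here do not give the strand setting of the counting. The Gm17122 call was lost without the first day 0 library or the second knockout-labelled library.

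The second comparison asked where the knockout-labelled program differed from that of WT embryoid bodies. Both day 4 groups share the day 0 libraries as their start, so the difference between their programs was tested directly as knockout-labelled day 4 against WT day 4. There 108 of the 19470 genes (0.555%) were called, 84 (0.431%) higher and 24 (0.123%) lower, and the median of all genes was -0.04. The number of calls rested on single libraries: it was 3 and 4 without the first and the second knockout-labelled library, 37 without the first WT day 4 library and 2709 without the second. Fitted on the day 4 groups alone no gene was called, and DESeq2 called 791. The named genes that were called are described here with all 3 groups.

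Hand1 was at 9.73 and 14.0 CPM in the knockout-labelled libraries and at 0.617 and 1.69 CPM in WT day 4 (log2 difference 3.36, SE 0.41, adjusted p = 0.0174). Gata3 was at 3.49 and 3.75 against 0.617 and 0.808 CPM (log2 difference 2.34, SE 0.39, adjusted p = 0.039), Foxc2 at 1.64 and 2.42 against 0.0229 and 0.19 CPM (log2 difference 4.23, SE 0.74, adjusted p = 0.0478, or 0.0563 with the replicate number as a block) and Dlx3 at 6.04 and 7.5 against 1.1 and 1.81 CPM (log2 difference 2.22, SE 0.28, adjusted p = 0.0174). In these developmental transcription factor genes WT embryoid bodies stayed nearer to the stem cells than the knockout-labelled ones did. Of the trophoblast list 4 of 20 genes were called higher than WT day 4, and these were Gata3, Hand1, Rhox6 and Rhox9. Rhox6 and Rhox9, X-linked homeobox genes of the placenta with near copies, were not called against day 0 (log2 fold change 0.03 and -0.38).

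Igf2 stood at 198 and 198 CPM against 44.1 and 42.3 CPM in WT day 4 (log2 difference 2.20, SE 0.22, adjusted p = 0.00735). Adm stood at 40.8 and 44.7 against 3.59 and 5.18 CPM (log2 difference 3.28, SE 0.30, adjusted p = 0.00735) and Ndrg1 at 171 and 175 against 67.2 and 76.2 CPM (log2 difference 1.27, SE 0.19, adjusted p = 0.0321). In the hypoxia and glycolysis list 4 of 28 genes were called higher than WT day 4, Adm, Car9, Ndrg1 and Vegfa, and none lower. Fstl3 stood at 11.9 and 15.9 against 2.22 and 3.73 CPM (log2 difference 2.23, SE 0.34, adjusted p = 0.0321). Rasgrf1, an imprinted Ras exchange factor, stood at 9.79 and 9.33 against 0.595 and 0.975 CPM (log2 difference 3.60, SE 0.39, adjusted p = 0.0105), up from 0.0896 and 0.0527 CPM in the stem cells. The complement gene C3 stood at 13.8 and 14.4 against 2.22 and 2.9 CPM (log2 difference 2.46, SE 0.26, adjusted p = 0.00968), and 3830417A13Rik at 13.3 and 11.4 against 2.2 and 1.93 CPM (log2 difference 2.58, SE 0.25, adjusted p = 0.00735). In C3 the WT day 4 libraries overlapped the stem cells, at 2.42 and 2.05 CPM.

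Among genes lower than in WT embryoid bodies, Cer1 stood at 3.13 and 2.74 against 23.6 and 23.4 CPM (log2 difference -3.0, SE 0.34, adjusted p = 0.0174). Cer1 rose from the stem cells in both day 4 groups and reached the lower level in the knockout-labelled one. Fgf15, a ligand gene of the FGF family, stood at 4.86 and 5.06 against 24.1 and 27.8 CPM (log2 difference -2.39, SE 0.24, adjusted p = 0.00779), with 12.0 and 13.8 CPM in the stem cells between them. Trh, the thyrotropin-releasing hormone gene, stood at 147 and 168 against 427 and 649 CPM (log2 difference -1.77, SE 0.24, adjusted p = 0.0274), and Slc27a2, a fatty acid transport gene, at 13.5 and 14.0 against 39.6 and 37.9 CPM (log2 difference -1.50, SE 0.25, adjusted p = 0.0435, or 0.0555 with the replicate number as a block). For both, the stem cells lay between the day 4 groups (273 and 294 and 22.4 and 26.2 CPM), and the fall from day 0, called in CPM, turned to 0.08 and 0.21 on log2(TPM + 1) (median of all genes 0.7) and lost its call with library totals. Alg13, an enzyme subunit of N-glycan synthesis, stood at 63.4 and 52.3 against 221 and 158 CPM (log2 difference -1.71, SE 0.28, adjusted p = 0.0351). The Alg13 and Fgf15 calls against day 0 were lost on TPM.

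Nanog stood at 119 and 107 against 266 and 228 CPM (log2 difference -1.13, SE 0.17, adjusted p = 0.0321), Dnmt3b at 624 and 616 against 1293 and 1453 CPM (log2 difference -1.15, SE 0.18, adjusted p = 0.0351) and Ccnd1 at 34.7 and 33.6 against 70.8 and 84.4 CPM (log2 difference -1.18, SE 0.17, adjusted p = 0.0321). The naive list had a median of -0.68 and the core list of -0.56 against WT day 4, with 0 and 1 genes called lower, so that most members were below WT day 4 without passing the test. Streak genes had a median of -0.39 and organizer genes of -0.64, with 0 and 1 called lower. The yolk sac list had a median of -0.11 with 1 called lower (Lama1), and the two-cell-like list one of 1.55 with none called. All 19 of these named differences lost their call when the day 4 groups were fitted alone, and without the first knockout-labelled library all but Adm lost it.

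**Figure D5:**
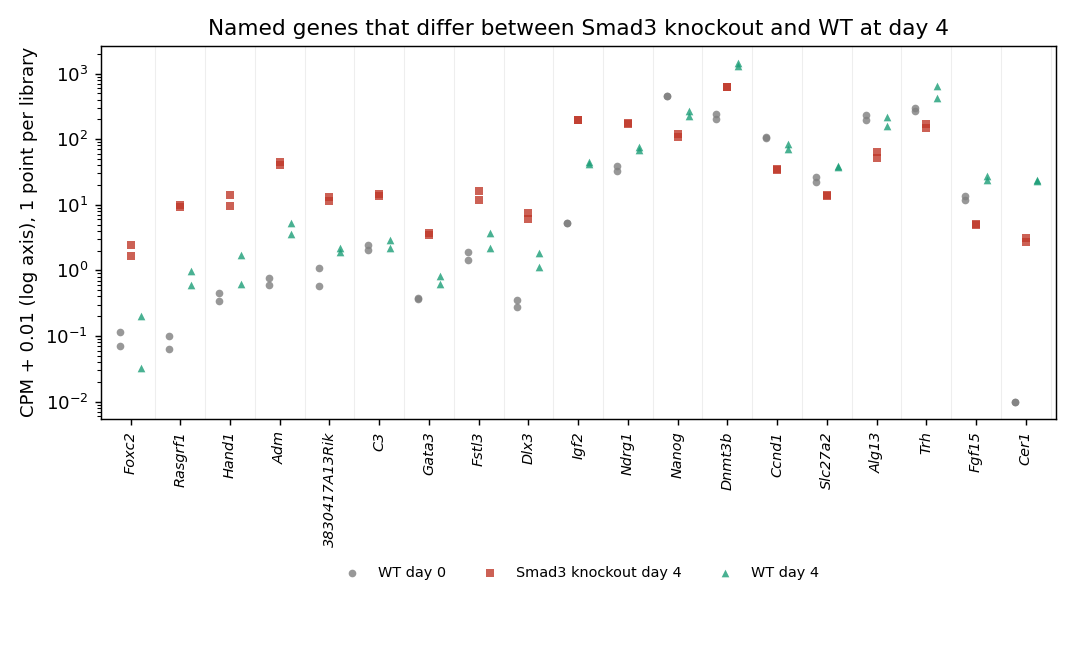
CPM, on a log axis after adding 0.01, of the 19 named genes called between the knockout-labelled and WT embryoid bodies at day 4, 1 point per library: grey circles WT day 0, red squares knockout-labelled day 4, green triangles WT day 4. In the 11 genes at the left the knockout-labelled libraries lie above WT day 4, in the 8 at the right below it; Trh, Slc27a2 and Fgf15 have stem cell levels between the day 4 groups.

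By chromosome, the median log2 fold change against day 0 ran from -0.27 on chromosome 17 to 0.43 on chromosome 1 among the autosomes, and was 0.42 on the X. Against WT day 4 the autosomes and the X lay between -0.17 and 0.09. The 12 tested genes of the Y had a median of -1.08 there, and the 15 of the mitochondrial genome one of -0.79. Against day 0 these medians were 0.03 and -0.38. None of the 5 tested members of a Y-linked list was called in either comparison. Of the 12 tested genes on the Y chromosome 2 were higher and 2 lower against day 0.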

How the data were processed

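The data are 1 RSEM gene table per RNA library, deposited by the authors. Per the file headers, its expected counts are estimated reads per gene, which need not be whole (12.2 to 14.6% of the genes in a library were not). The deposited TPM values are RSEM's own, per the file headers, and the FPKM column was left unused. Among the tools in the submitters' processing notes, listed with no role or order, are RSEM, STAR, Bowtie2, HOMER and FastQC 0.11.5, and the build is mm10. The annotation version, the strand setting and the allele are not given in these sources. Of 53379 genes, 20602 had no count in any library. GENCODE M21, of the same build, gave positions and symbols by gene ID (50604 matched with the version, 53274 without, 105 not at all), and 79 symbols belong to more than 1 ID.

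Groups and replicate numbers came from the labels. After rounding, the expected counts were tested in edgeR 4.0.16 (R 4.3.3): TMM factors, filterByExpr, the quasi-likelihood F test in 1 fit over 5 groups of 2 libraries (5 residual degrees of freedom), and Benjamini-Hochberg adjusted p under 0.05 over 19470 genes as the call. The common biological coefficient of variation was 0.248. CPM used TMM-scaled library sizes, and standard errors are the absolute log2 fold change over the root of F. Genes without a count in a group got a bound against 3 counts over its 2 libraries (0.042 CPM at day 0); intervals and bounds cover counting error only. Other scalings, filters, blocks, DESeq2 1.42.0, limma 3.58.1 on log2(TPM + 1) and log2(TPM + 0.1), and leaving out each library were alternatives. Only the main fit against day 0 was tested on simulated counts. Few genes were changed in them, equally up and down, unlike in these data, and the other fits were not tested in this way. The 14 chromatin samples were not analysed here.

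The question, the 41 gene lists and the 33 panel genes were chosen with earlier results of these data known, so no list is independent evidence. Named were Smad3, the panel, the 2 called list members with the smallest adjusted p in the main direction and the 1 in the other, the 6 largest rises and falls against day 0 (at least 5 CPM in the higher group, at least 10 counts in the lower, groups that do not overlap), the 4 highest called genes under 10 day 0 counts, and the 5 largest rises and falls against WT day 4. Other members are named by their call only. Some genes that this rule names are not reported here.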

Additional observations from a re-analysis of the deposited data

Results flagged for a closer look

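The 19 results given here were singled out because the change of the knockout-labelled embryoid bodies from day 0 differed from that of WT embryoid bodies, by the test of knockout-labelled day 4 against WT day 4 (log2 differences, each called at an adjusted p under 0.05 by edgeR). Higher than in WT day 4 were Foxc2 by 4.23, Rasgrf1 by 3.6, Hand1 by 3.36, Adm by 3.28, 3830417A13Rik by 2.58, C3 by 2.46, Gata3 by 2.34, Fstl3 by 2.23, Dlx3 by 2.22, Igf2 by 2.2 and Ndrg1 by 1.27. Lower were Cer1 (-3.0), Fgf15 (-2.39), Trh (-1.77), Alg13 (-1.71), Slc27a2 (-1.5), Ccnd1 (-1.18), Dnmt3b (-1.15) and Nanog (-1.13). The groups' libraries did not overlap in any of the 19 genes. That was a condition for naming the largest rises and falls, and the others were chosen by their call, so it adds no support. Of all tested genes 0.555% were called in this comparison. The labels give no day 0 library of the knockout-labelled line, so a difference already present in its stem cells cannot be told apart from one that arose over the 4 days.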

How the results depend on the processing

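Of the differences of named genes, 2402 values under the alternatives kept their direction and their side of the threshold, 194 kept the direction and lost the call, 4 gained one (Gsc) and 17 changed sign. The cause of each change was not tested unless named. On log2(TPM + 1), log2(TPM + 0.1) and log2(TPM + 1) without a filter, in that order, Bmp4 went to 0.22, 0.25 and 0.22, Cldn4 to 0.10, 0.10 and 0.10, Fdft1 to 0.05, 0.05 and 0.05, Trh to 0.08, 0.08 and 0.08 and Slc27a2 to 0.21, 0.23 and 0.21 against day 0, and Pax6 to 0.28 in the last of these. The median of all tested genes was 0.7 on log2(TPM + 1), 0.82 on log2(TPM + 0.1) and 0.08 without a filter, beside 0.09 in the main fit. Bmp4, Cldn4, Fdft1, Trh and Slc27a2 all lay below that median in the TPM fits with a filter. Cenpe went to -0.75 with the length and GC offset.

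Against day 0, calls numbered 10605 with RLE size factors, 10707 with library totals, 11233 without a filter, 8717 with a stricter one, 10773 with the replicate block, 11451 with a block for the 2 series of file names, 12542 with the 2 groups alone and 10426 with DESeq2. Genes called lower numbered 2961 with library totals, 1329 on log2(TPM + 1), 1287 on log2(TPM + 0.1) and 1619 on TPM without a filter, where 9361 were called higher. Leaving out 1 library gave 6985 to 8216 calls, 2977 to 3800 of them lower.

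Against WT day 4, where 108 genes were called (84 higher, 24 lower), the calls numbered 140 with RLE, 191 with library totals (173 higher), 1096 without a filter (686 and 410), 179 with the stricter filter (142 and 37), 278 with the name-series block (195 and 83), 1359 with the length and GC offset (754 and 605), 791 by DESeq2 (506 and 285) and 0 with the 2 groups alone, where 2421 genes had an unadjusted p under 0.05. On TPM they numbered 103 with 6 lower, 54 (52 and 2) with 0.1 added and 216 (168 and 48) without a filter. Leaving out 1 library gave 3 to 2709 calls, 2 to 1595 higher and 1 to 1114 lower.

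With the replicate number as a block, 10773 genes were called against day 0 and 99 against WT day 4, where the calls of Foxc2 and Slc27a2 were lost. Deviations of same-numbered libraries from their group means correlated at 0.169 between day 0 and the knockout-labelled group. Between the day 4 groups the value was 0.51, and over all pairs of groups the values ran from -0.18 to 0.51. The main fit did not take the numbers as pairs, also not in the second comparison, which had the highest of these values. With the name-series block all 108 calls against WT day 4 were kept.

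The list counts moved as follows. With library totals, lower calls were 5 for cholesterol, 6 for mitosis and 1 for leukocyte genes, and 8 stroma genes were higher. On log2(TPM + 1) and log2(TPM + 0.1), higher calls were 3 for mesoderm, 2 for cardiac, 1 for HOX, 23 for glycolysis and hypoxia, 13 for p53 and 6 for stroma genes under both, and 4 and 5 for neural genes (the filter on TPM left 6 mesoderm, 7 cardiac, 1 HOX, 9 stroma, 7 neural and 2 leukocyte genes to test); lower calls were 3 for germ cell, 0 for cholesterol, 10 for replication, 3 for mitosis, 3 for G1 and 0 for leukocyte genes under both, and 13 and 12 for ribosomal proteins. On TPM without a filter, higher calls were 23 for glycolysis and hypoxia, 13 for p53, 13 for immunoproteasome and 6 for stroma genes, and lower calls 4 for germ cell, 0 for cholesterol, 14 for respiratory chain, 7 for replication, 3 for mitosis, 3 for G1, 0 for leukocyte genes and 5 for ribosomal proteins. Without a count filter 14 HOX and 6 stroma genes were higher, and with the stricter one, which tests fewer genes, 3 mesoderm, 3 neural, 3 HOX and 1 stroma genes were higher and 0 leukocyte genes lower. With the 2 groups alone 11 G1 genes were lower and 5 stroma genes higher. With the length and GC offset 3 LIF, 1 DNA methylation, 13 immunoproteasome and 6 stroma genes were higher, and 17 cholesterol, 20 mitosis, 1 leukocyte and 9 ribosomal protein genes lower.

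Leaving out 1 library, which also leaves fewer samples, gave 6 to 10 higher calls for streak, 4 to 6 for mesoderm, 3 to 5 for hematoendothelial, 5 to 7 for trophoblast, 3 to 7 for neural, 6 to 8 for BMP, 8 to 11 for WNT, 7 to 10 for FGF, 5 to 8 for retinoic acid, 7 to 13 for matrix, 2 to 4 for HOX, 5 to 8 for p53 and 4 to 5 for immunoproteasome genes. Lower calls ranged from 6 to 7 for cholesterol, 6 to 8 for mitosis, 0 to 1 for leukocyte and 51 to 78 for ribosomal protein genes. The lone library of such a group is assumed to vary like the other groups.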
